A study of Homo sapiens with 2 samples.

Results

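The 10 genes described here encode the receptor tyrosine kinase MET, its paralog MST1R, the MET ligand HGF, and 7 adaptors and regulators that couple the receptor to RAS: GRB2, GAB1, GAB2, SHC1, PTPN11, SOS1 and CBL. They were taken as a named list, with no measured value in the rule, and all 10 were found among the 18377 genes of the array table. EBC1 is a human lung squamous carcinoma line that carries an amplified MET gene and depends on it for growth. EBC1-R is a subline of EBC1 cells that survived stepwise exposure to PHA-665752, a small molecule that blocks the MET kinase, and its medium kept 3 µM of MET inhibitor. The groups were 1 array of wild type EBC1 and 1 array of EBC1-R, each from total RNA of frozen cells grown with fetal bovine serum. The sources used here do not say whether EBC1-R is 1 clone or a mixed population. Resistance and continued exposure to the inhibitor cannot be told apart in this design, because the resistant cells were held in drug. In RNA from whole cultures, fewer cells of a kind and less RNA per cell cannot be told apart either.

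Hepatocyte growth factor, made mostly by mesenchymal cells, binds MET on epithelial cells and drives phosphorylation of a docking site in the receptor's tail. GRB2 and the large scaffold GAB1 are recruited there. GAB1 in turn binds the phosphatase SHP2, the product of PTPN11, while GRB2 brings the exchange factor SOS1 to RAS, which starts the ERK cascade. The ubiquitin ligase CBL ends the signal by marking the receptor for internalisation and lysosomal breakdown. In cells with an amplified MET gene the receptor signals without ligand, and the signal is set by receptor abundance and kinase activity. Most of these steps act on protein, through phosphorylation and ubiquitin, which transcript arrays do not measure.

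Promoter windows of the ligand and both receptors are shown because HGF was at the low end of the arrays, MET had almost the same level on both arrays and MST1R was the member with the largest difference. Each is the run of 250 bases before the annotated gene start in RefSeq (GRCh38.p14), read 5′ to 3′ on the gene's strand. Capitals mark the GC box GGGCGG, the motif bound by SP family factors, on either strand. The windows lie at chr7:116671946-116672195 on the plus strand for MET, chr3:49903874-49904123 on the minus strand for MST1R and chr7:81770048-81770297 on the minus strand for HGF.
MET: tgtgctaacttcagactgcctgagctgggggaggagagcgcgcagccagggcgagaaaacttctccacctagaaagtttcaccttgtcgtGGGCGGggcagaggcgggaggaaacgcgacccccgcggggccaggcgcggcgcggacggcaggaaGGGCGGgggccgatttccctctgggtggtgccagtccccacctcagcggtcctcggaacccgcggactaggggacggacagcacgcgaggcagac
MST1R: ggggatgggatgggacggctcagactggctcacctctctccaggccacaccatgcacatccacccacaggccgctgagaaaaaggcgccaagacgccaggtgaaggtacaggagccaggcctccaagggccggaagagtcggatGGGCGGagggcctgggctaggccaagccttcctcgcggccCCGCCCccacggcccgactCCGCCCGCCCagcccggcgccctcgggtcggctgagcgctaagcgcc
HGF: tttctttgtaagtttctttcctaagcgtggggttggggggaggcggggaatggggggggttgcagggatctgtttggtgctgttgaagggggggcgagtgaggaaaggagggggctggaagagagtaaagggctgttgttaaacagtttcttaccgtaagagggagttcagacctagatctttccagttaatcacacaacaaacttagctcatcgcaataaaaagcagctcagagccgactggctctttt
The MET window held 2 GC boxes, 24 CpG dinucleotides and 68.4% G or C. The MST1R window held 4 GC boxes, of which the last pair overlap, with 20 CpG dinucleotides and 70.8% G or C. The HGF window held no GC box, 6 CpG dinucleotides and 50.0% G or C. A GC box was found in 42.6% of the 35116 windows of that length in the table, whose median share of G or C was 58.0%. Other motifs were searched on both strands: the E-box CACGTG (in 6.34% of all windows), the AP-1 element TGANTCA (6.57%), the TATA box TATAAA (10.7%) and the ETS core CCGGAA (14.5%). Of these, the ETS core matched once in the MST1R window, and no other match was found in these 3 windows. These matches describe letters in the reference sequence and not sites shown to be used in these cells. The promoter table held 7 of the 10 genes, the others being GAB1, CBL and PTPN11.

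Values are log2 intensities as the authors deposited them, and a difference is always log2 EBC1-R minus log2 EBC1. Each group had a single array, which leaves no replicate error and allows no test, and differences are reported as sizes. The number of arrays limits the precision. Over the 374 genes with several probe sets and a level of at least 7.41 on either array, probe sets of the same gene scattered in their differences with a pooled SD of 0.16; this figure holds no variation between cultures. Deposited values ran from 4.21 to 14.1 in EBC1 and from 4.22 to 14.2 in EBC1-R, with medians of 6.73 and 6.71. Signal from a probe set depends on its sequence as well as on its transcript, so transcript levels are compared between arrays and not between genes. The 339 measured olfactory receptor genes, which a lung carcinoma line is not known to use, served as a guide to the low end of the scale: 95% of them lay between 4.48 and 6.50 in EBC1 and between 4.44 and 6.26 in EBC1-R.

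The epithelial identity of both cultures was visible in EPCAM, a surface adhesion protein, at 11.33 and 11.25 in EBC1 and EBC1-R, and in E-cadherin (CDH1) at 11.96 and 12.06. Of 8 measured epithelial markers, the simple-epithelium keratins KRT8 (-0.83), KRT18 (-0.78) and KRT19 (-0.89) were at least 1.5-fold lower in EBC1-R. The basal and squamous keratin KRT5 was at 6.17 and 6.11, inside the olfactory receptor range on both arrays, so this squamous marker was not seen above the low end. The 6 endothelial markers lay between 4.84 and 7.08 in EBC1 and between 4.91 and 6.83 in EBC1-R. The 7 fibroblast markers spanned 4.54 to 7.64 and 4.56 to 7.61. Among 5 leukocyte markers only CD68, a lysosomal protein that many cell types make, was above 7.41, at 11.04 and 11.45, while the defining leukocyte marker PTPRC was at 4.56 and 4.65. The log2 of the summed linear levels was 14.8 in EBC1 and 14.3 in EBC1-R for the epithelial list. It was 11.1 and 11.5 for the leukocyte list, 9.04 and 9.00 for fibroblasts and 8.41 and 8.34 for endothelium. Most of the leukocyte sum is CD68 alone, so its difference is that of CD68. The sums add probe signals of different genes and do not compare the lists with each other. The part of the keratin difference in the results below was not tested.

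Most transcripts of the MET module differed little between parental and resistant cells: 8 of the 10 genes were within 0.19 log2 units of 0, GAB1 was at -0.35 and MST1R at -0.79. Of the 10 genes, MST1R alone was at least 1.5-fold different, and none reached 2-fold. In the background of all genes, 7.57% were at least 1.5-fold different and 2.14% at least 2-fold, so 1 of 10 is close to the share among genes at large. Over genes with a level of at least 7.41 on either array, the median of the genes' higher values, the shares were 12.5% and 3.8%, and 9 of the 10 genes were among these. The median difference of the 10 genes was -0.05, beside -0.03 over all genes. In this list 4 genes were higher and 6 lower in EBC1-R, with MET, one of the 4, at 0.00 after quantile normalization. Without MST1R the differences ran from -0.35 to 0.04.

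**Figure D1:**
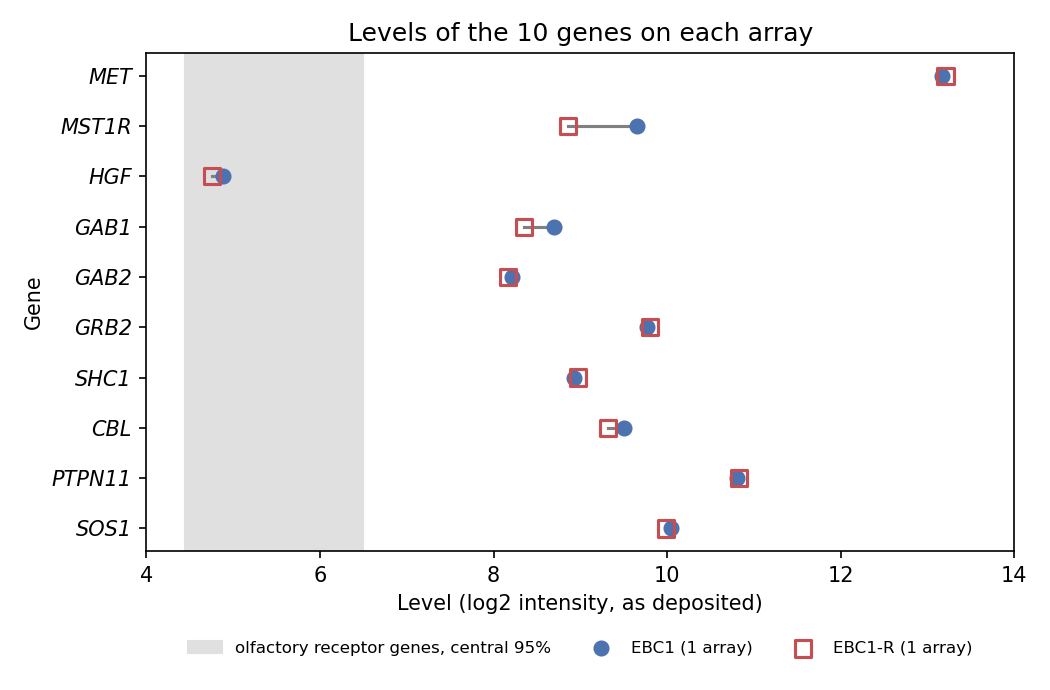
Level of each of the 10 genes in log2 intensity on the EBC1 array (filled circles) and the EBC1-R array (open squares), 1 array each, with no error bars because there were no replicates. The grey band spans the central 95% of 339 olfactory receptor genes, taking the lower lower bound and the higher upper bound of the arrays; HGF lies inside it, and MST1R shows the widest gap between its symbols.

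The ligand HGF was at 4.89 in the parental cells and 4.76 in the resistant cells. These values lay above those of 24.5% and 20.4% of olfactory receptor genes, so on neither array was HGF above the low end of the scale. Its difference of -0.13 is inside the central 95% of olfactory receptor differences, which ran from -0.36 to 0.21. No detection call was used, and a low transcript level below what these probes resolve cannot be told apart from none.

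The receptor gene MET stood at 13.17 in the parental and 13.21 in the resistant cells, which is 0.04 log2 units or 1.03-fold. Its probe set held rank 38 from the top among 28869 probe sets on both arrays, and 86.9% of all genes differed by more in size. Whether signal this high still follows the amount of transcript was not tested. A single probe set represents MET, so the values give the total signal over the probes and do not resolve splice forms. By Euclidean distance of the log2 values over the 2 arrays, the 3 genes whose signals lay nearest to those of MET were the ribosomal protein genes RPL10 (distance 0.05) and RPL18 (0.06) and the cytoplasmic actin gene ACTG1 (0.09). This gives positions of probe signal on 2 arrays and says nothing of relative transcript abundance. Among genes next to MET on chromosome 7, CAV1 went from 13.36 to 13.05 and TES from 12.89 to 12.53, while CAPZA2 went from 11.79 to 12.18 and ST7 from 10.22 to 10.99. CFTR, an epithelial chloride channel gene, had the largest difference of the 7 measured neighbours, from 5.35, inside the olfactory receptor range, to 7.28. CFTR and ST7, 2 of the 7, were at least 1.5-fold higher and 0 were lower by that much, beside 4.41% and 3.16% of all genes. CFTR was the 1 neighbour past 2-fold, beside 2.14% of all genes. CAV2 is not among the 7, since its probe set also names another gene. That probe set went from 12.68 to 12.29. WNT2 (5.13 and 5.14) and ASZ1 (4.94 and 5.17) were inside the olfactory receptor range on both arrays. The median of the 7, 0.24, is the value of ASZ1 and so describes a gene at the low end of the scale.

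MST1R encodes RON, the receptor for macrophage-stimulating protein and the closest relative of MET, with which it can form heterodimers. It stood at 9.65 in parental and 8.86 in resistant cells, a difference of -0.79, or 1.73-fold lower in EBC1-R. Both levels were above those of all 339 olfactory receptor genes. Among all genes 3.90% differed by more in size, and 1.64% had a lower difference. The gap between the paralogs, MST1R minus MET, was -0.83 log2 units. Across the 6 other ways of processing, the MST1R difference stayed between -0.79 and -0.77. MST1R has 1 probe set and none shared with other genes, so the settings that change the choice of probe sets could not move it. The genes with signals nearest to MST1R by the same distance were CSGALNACT2 (0.04; difference -0.83), NT5DC3 (0.04; -0.74) and LBR (0.05; -0.84).

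**Figure D2:**
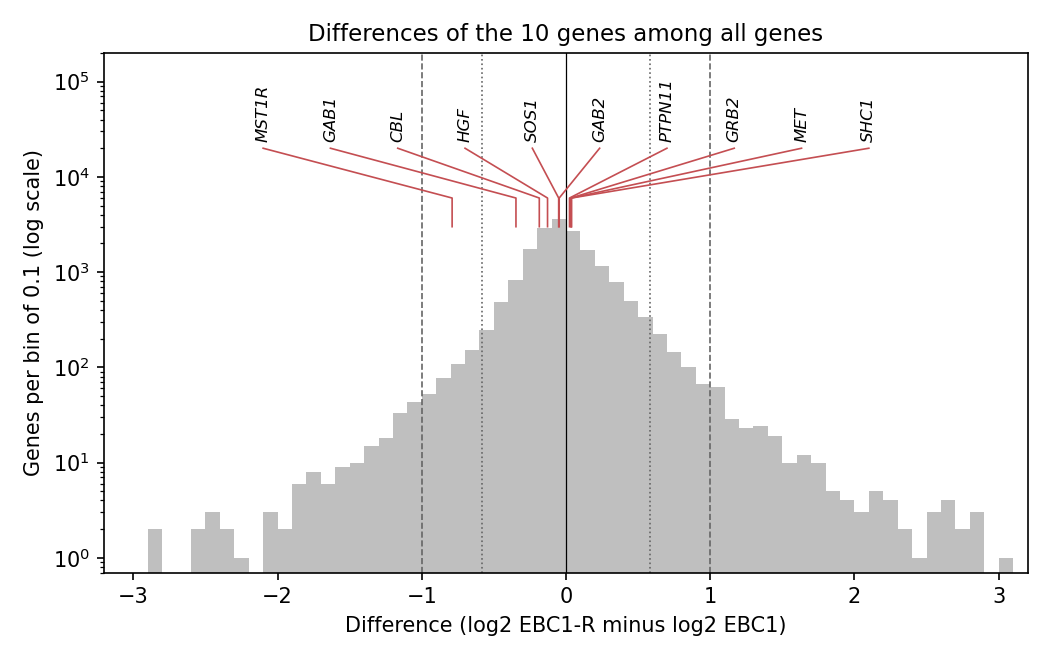
Histogram of the difference, log2 EBC1-R minus log2 EBC1, over 18377 genes in bins of 0.1, with a log count axis. Red lines lead from each of the 10 names to its difference. Off the plot are 5 genes with differences above 3.2, all higher in EBC1-R, while the lowest difference of any gene was -2.85. Dotted lines mark 1.5-fold and dashed lines 2-fold; MST1R is the only named gene outside the dotted lines, and GAB1 at -0.35 is next, with the other 8 within 0.19 of 0.

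The adaptor GRB2, an SH2 and SH3 domain protein that links activated receptors to SOS, was at 9.77 in parental and 9.80 in resistant cells. SHC1, a phosphotyrosine-binding adaptor that offers GRB2 another route to the receptor, was at 8.93 and 8.97. Both differed by less than 0.04 log2 units. SOS1, the guanine nucleotide exchange factor that loads RAS with GTP, was at 10.04 and 9.99, a difference of -0.05. PTPN11, whose product SHP2 is needed for full RAS activation downstream of GAB1, was at 10.80 and 10.83, a difference of 0.02 and the smallest in size of the 10 genes. On these arrays, then, the transcripts for the core link from receptor to RAS showed values that almost coincide.

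The scaffolds differed more from each other. GAB1, the scaffold that binds MET directly and recruits SHP2 and the PI3K regulatory subunit, had 2 probe sets. One was at 9.94 and 9.51 in parental and resistant cells, and the other at 7.45 and 7.18. Their differences were -0.43 and -0.27, in the same direction. The mean difference of -0.35, or 1.27-fold lower in EBC1-R, did not reach 1.5-fold, and 19.9% of all genes differed by more in size. GAB2, which is brought to the receptor through GRB2, was at 8.21 and 8.17, a difference of -0.05. CBL was at 9.50 in parental and 9.32 in resistant cells, a difference of -0.19 or 1.14-fold lower, a size exceeded by 43.4% of all genes.

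Paralogs of the 10 genes were set beside them, and these relatives were paired with the members after their values had been seen. In the CBL family, CBLB, another ubiquitin ligase for activated receptors, went from 8.80 to 9.88, a difference of 1.08 or 2.12-fold higher in EBC1-R. CBL stood at -0.19 and the epithelial member CBLC, at 6.20 and 6.23, at 0.02, so CBLB minus CBL was 1.27 log2 units. CBLC was within the olfactory receptor range on both arrays. In the SHC family SHC1 was at 0.04, whereas SHC2 (-0.21), SHC3 (-0.36) and SHC4 (-0.39) were lower. Among the phosphatases PTPN6, which encodes SHP1, was 1.34-fold higher, from 8.36 to 8.78, beside 0.02 for PTPN11. SOS2 differed by -0.22 and SOS1 by -0.05. GAB3, at 6.33 and 6.32, differed by -0.01, a sign that turned when the columns were quantile normalized or median centred or when the trend on intensity was removed. GRAP, a GRB2 relative of lymphoid cells, went from 6.27 to 6.72 in the probe set that names it alone. In a probe set that names GRAP together with its copy GRAPL, the difference was -0.20, so its direction was not settled. MST1, the gene of the MST1R ligand, was at 6.51 and 6.33, just above the upper edge of the olfactory receptor range. It has near-identical copies, and probe sets that name it together with them differed by -0.32 and -0.31.

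**Figure D3:**
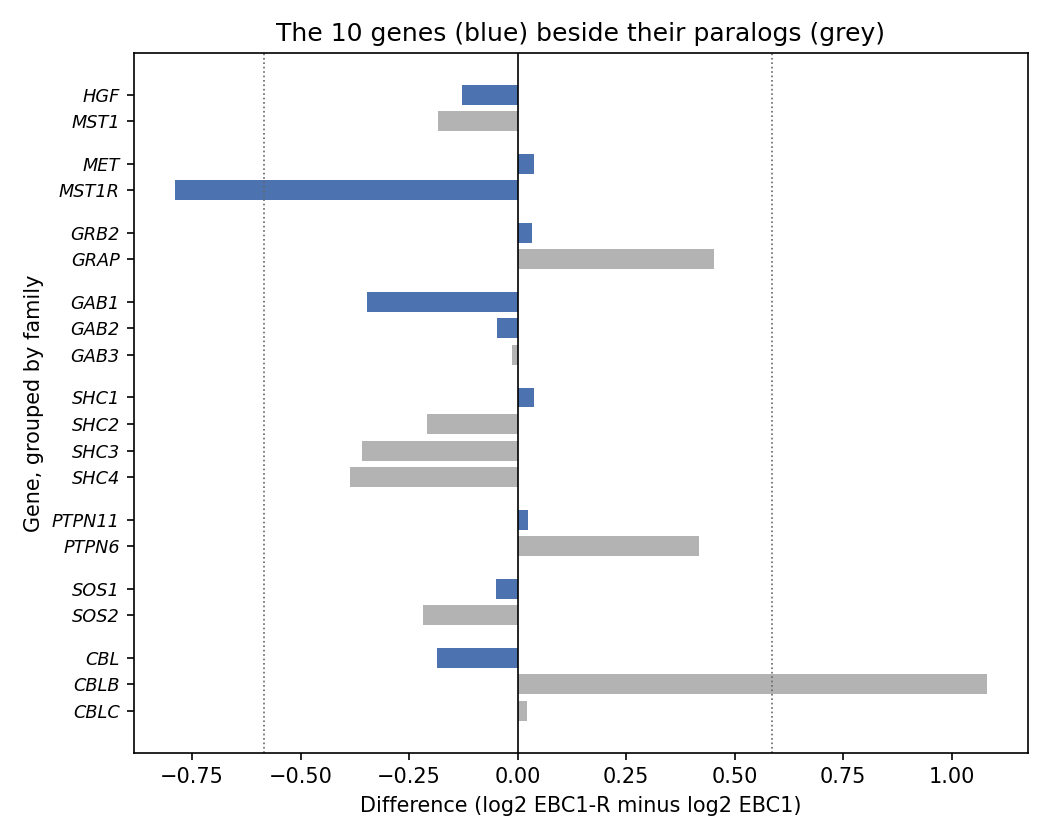
Difference, log2 EBC1-R minus log2 EBC1, for the 10 genes (blue bars) and their measured paralogs (grey bars), grouped by family, from 1 array per group and therefore without error bars. Dotted lines mark 1.5-fold; MST1R at -0.79 and CBLB at 1.08 are the bars that pass them.

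Ligand activation and the receptor's surface partners were taken from lists of genes known to act with MET. These lists, like the MET neighbours above and the lists below, were chosen with earlier results of these data known. Their counts describe the listed genes and cannot show an excess over all genes. Of 11 measured genes of ligand processing, 1 was at least 1.5-fold higher and 1 lower, beside 4.41% and 3.16% of all genes. The median of the 11 was -0.15. PLAU, urokinase, which can cleave pro-HGF, went from 12.16 to 10.87 and was 2.45-fold lower in EBC1-R. SERPINA5, an inhibitor of the HGF activator protease, went from 6.61 to 7.29, 1.60-fold higher, and stayed under 7.41 on both arrays. Matriptase (ST14), the main epithelial activator of pro-HGF, was 1.18-fold lower at 11.37 and 11.14, and its inhibitors SPINT1 and SPINT2 differed by 0.28 and 0.03; these 3 genes were chosen after their values were seen.

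Of 12 surface partners, 5 were at least 1.5-fold lower and 0 at least 1.5-fold higher, beside 3.16% of all genes lower by that much and 4.41% higher. A level of at least 7.41 on either array was seen for 9 of the 12. Among all genes with such a level, 12.5% were past 1.5-fold in either direction. The median was -0.27, or -0.16 when the brightest probe set of each gene was used. The integrin subunit ITGB4, a laminin receptor that can act as a signalling platform for MET, went from 10.74 to 9.51, 2.34-fold lower. Its partner subunit ITGA6 went from 11.43 to 10.46, 1.97-fold lower. The heparan sulfate proteoglycan SDC1, which can present HGF to MET, went from 10.75 to 9.52, 2.34-fold lower. The coreceptor NRP1 was 1.80-fold lower and the semaphorin receptor PLXNB1, which associates with MET, 1.67-fold lower. These partners are general surface proteins with other functions. Whether their lower levels are linked to those of the keratins given above was not tested.

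Of all genes, 7.57% were past 1.5-fold, or 12.5% of those with a level of at least 7.41 on either array. The wider adaptor list had no gene past 1.5-fold in either direction among 20 measured, with a median of -0.06. The lowest difference was -0.54 (IRS1), and the highest was 0.45 for GRAP, whose direction was not settled as described above, followed by 0.42 for PTPN6. Of 11 effectors that dock on the receptor or on GAB1, PIK3R3, a PI3K regulatory subunit, was the 1 past 1.5-fold, from 7.64 to 6.94, or 1.62-fold lower. STAT3, which binds the MET docking site, was 1.26-fold higher, and PIK3R1, the main regulatory subunit, differed by 0.11; both were chosen after their values were seen.

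Genes listed with negative regulation of the receptor stood on both sides. Of 19 measured, 2 were at least 1.5-fold higher and 3 lower, beside 4.41% and 3.16% of all genes. The median of the 19 was -0.07. Besides CBLB, ADAM17, a protease that sheds receptor ectodomains, went from 9.64 to 10.43, 1.73-fold higher. SOCS3, a feedback inhibitor induced by STAT3, went from 7.73 to 6.53, 2.30-fold lower. TIMP3, an inhibitor of such shedding, opposes a regulator of this list and is not itself a negative regulator. It is counted among the lower genes, but lay at the upper edge of the olfactory receptor range in EBC1 (6.50). In EBC1-R it was inside that range (5.76), so no fold is given. Its difference was -0.74, and -0.91 with the brightest probe set. HGS, which sorts ubiquitinated receptors to lysosomes, was 1.52-fold lower, and with each column centred on its median its difference of -0.58 fell just short of 1.5-fold.

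Among 14 measured RAS proteins and regulators, 5 were at least 1.5-fold lower and 1 higher, beside 3.16% and 4.41% of all genes. A level of at least 7.41 on either array was seen for 11 of the 14. Among all genes with such a level, 12.5% were past 1.5-fold in either direction. This list too was chosen with earlier results known, so the count shows no excess over all genes. The 5 lower genes were the listed Sprouty and SPRED genes, which are feedback inhibitors of the path from receptor to RAS and ERK. The list does not cover these families in full. SPRY4 went from 8.74 to 6.96, 3.44-fold lower, SPRY2 was 2.20-fold and SPRY1 1.93-fold lower, and SPRED2 and SPRED1 were 1.81-fold and 1.80-fold lower. The other 9 genes had a median of -0.02, and RRAS, a RAS relative that acts in adhesion, was the 1 among them past 1.5-fold, at 1.78-fold higher. HRAS, chosen after its value was seen, differed by -0.17. On the same arrays the differences of the 10 genes ran from -0.79 for MST1R, -0.35 for GAB1 and -0.19 for CBL to 0.04, and those of the 5 feedback inhibitors from -1.78 to -0.85.

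**Figure D4:**
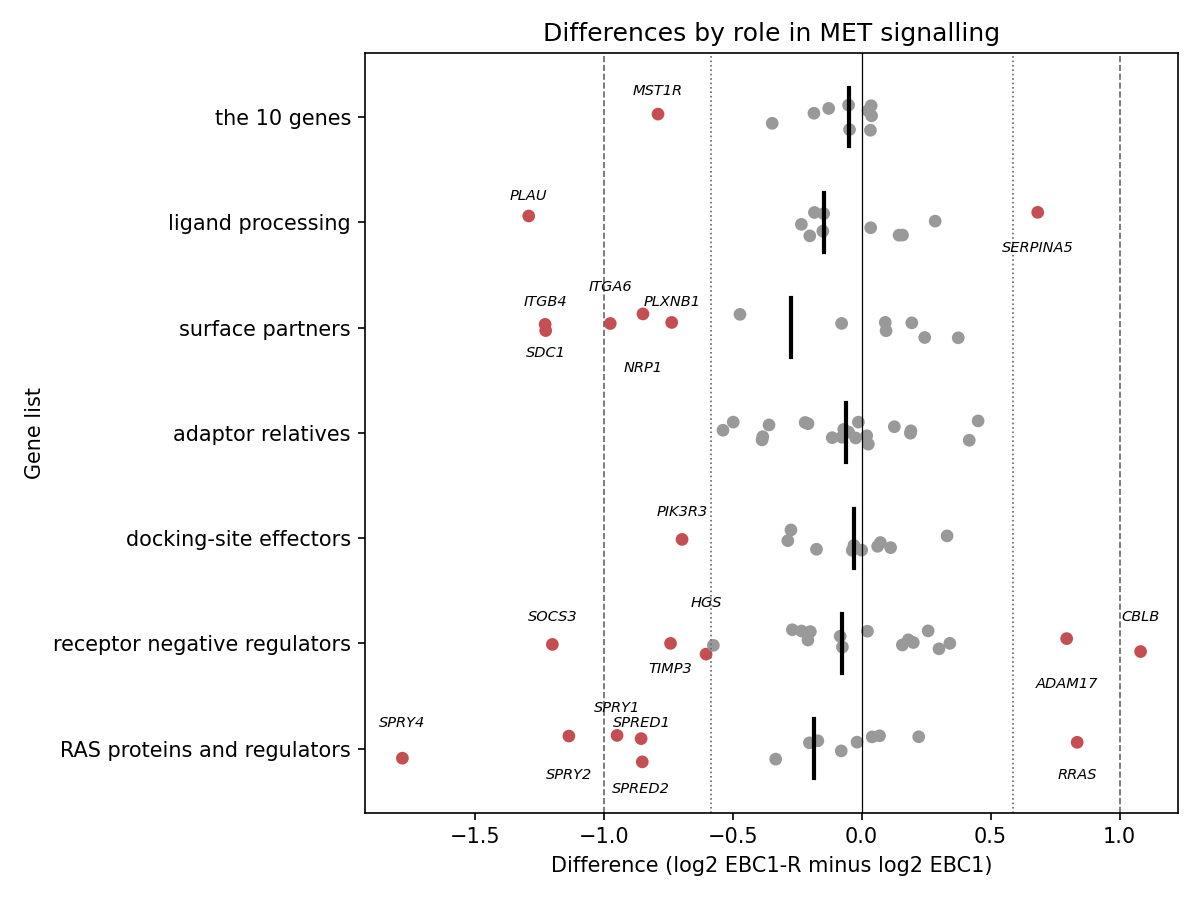
Difference, log2 EBC1-R minus log2 EBC1, of every measured gene of 7 lists, with the median of each list as a black bar; red points are at least 1.5-fold different (dotted lines) and dashed lines mark 2-fold. Vertical scatter within a list only separates points; of the 10 genes MST1R is the red point, while 5 surface partners and 5 RAS regulators lie to the left of the dotted line.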

How the data were processed

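Per the labels' protocols, biotin-labelled cDNA was prepared from 100 ng of total RNA by an Affymetrix procedure for whole transcripts. The array named there is another model than the one whose annotation fits the 28869 probe set identifiers. The authors deposited 1 value per probe set, taken here as log2 intensity from its range; the sources used here do not give the log base, the summarization or the software. Both columns have nearly the same distribution, so a change shared by most genes is not visible. Probe sets annotated to exactly 1 symbol (19310; 1752 had several and 7807 none) were averaged per gene, giving 18377 genes. Gene identifiers of the 10 members were looked up in RefSeq. No coordinates of probes are given, since the array's build is not stated.

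Counts use 1.5-fold and 2-fold. The members, lists and thresholds were chosen with earlier results of these data known. Named genes are the members, the genes of each list at least 1.5-fold different (at most 5, by size), and the 3 nearest genes to MET and MST1R; the text marks others as such, apart from RRAS, the neighbours of MET, the marker genes, and GRAP, IRS1 and PTPN6 at the ends of a range, which are also outside that rule. The alternatives were quantile normalization, median centring, removal of a lowess trend (span 0.2), a pseudocount of 16, the brightest probe set, added probe sets that name several genes, and a level filter. Counting past 2-fold was tested on simulated data with planted differences well past that size. Counting past 1.5-fold was not tested in this way. Python 3.11.15, pandas 2.3.3 and statsmodels 0.14.6 were used.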

Additional observations from a re-analysis of the deposited data

How the results depend on the processing

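The counts of members past 1.5-fold (1) and 2-fold (0) were recomputed under 6 alternatives and stayed the same. The median of the 10 genes and the middle value of the list medians each moved by less than the probe set SD of 0.16. Of the 10 genes only GAB1 has more than 1 probe set, so the choice of probe sets could move no other member. MET was at 0.00 after quantile normalization, since its rank was the same on both arrays, and at most 0.06 elsewhere. GAB1 ranged from -0.43, with the brightest probe set, to -0.33. TIMP3 was at -0.91 with the brightest probe set, and CFTR, a MET neighbour, went from 1.93 to 1.59 with a pseudocount of 16. Among genes with a level of at least 7.41, the share past 1.5-fold was 12.5% in place of 7.57%, and past 2-fold 3.80% in place of 2.14%. No setting shifted the median of all genes by more than 0.03. No paired analysis was possible because each group has 1 array, and for the same reason no array could be left out. Low intensities such as those of HGF, GAB3, CBLC and MST1 may be background, since no detection calls were used, and a change in transcript is compressed there.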
